A study of Capra hircus with 2 samples.

Results

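The 8 immediate early genes FOS, FOSB, JUN, JUNB, JUND, ATF3, EGR1 and IER2 were followed in the skin of Liaoning cashmere goats by single-cell RNA sequencing. They were chosen by symbol, and all 8 are among the 27137 features of the matrix. Scapular skin in anagen, the growth phase of the hair cycle, was taken from 2 healthy goats, 1 with coarse cashmere (CT-LCG) and another with fine cashmere (FT-LCG). The pieces were digested with shaking in a warm bath, dead cells were removed with beads, and 1 droplet library per goat was made. No treatment of either goat is described, each type is 1 animal, and the cells of a library are not replicates. Levels are therefore given with intervals for counting error only, and no test between the types was made.

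Immediate early genes are transcribed within minutes of a stimulus, from factors already present in the cell, and their RNAs are short-lived. The Fos proteins (FOS, FOSB) pair with the Jun proteins (JUN, JUNB, JUND) to form the transcription factor AP-1, and ATF3, a stress-induced relative, can also pair with Jun proteins. EGR1 is a zinc finger transcription factor induced through the MAP kinase cascade, and IER2 encodes a small nuclear protein induced at the same time. In skin, wounding, ultraviolet light and the enzymatic digestion of tissue are known stimuli of these genes, and AP-1 also acts in the differentiation of keratinocytes.

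The authors kept 3443 cells of CT-LCG and 9608 of FT-LCG, with 27890472 and 85400323 unique molecular identifiers (UMIs, each standing for 1 captured RNA molecule) and medians of 2314 and 6121.5 UMIs per cell. Of the kept cells' barcode sequences, 11 occurred in both libraries. The level of a gene is its UMIs per 10000 UMIs summed over a set of cells. The 3′ kit counts a molecule once whatever its length, so levels were not divided by gene length. Other differences in capture between genes were not tested. Cells were clustered without the 8 genes and without the gene lists used below, and 12 of the 13 clusters held at least 20 cells of each library.

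All 8 genes were abundant in both libraries. Among 18742 genes with a UMI in CT-LCG and 19637 in FT-LCG, their ranks by level ran from 67 to 316 and from 70 to 411. Together they took 1.14% of all UMIs of CT-LCG and 1.27% of those of FT-LCG. A median of 7 of the 8 genes was detected per cell in either library, and only 7 of the CT-LCG cells and 18 of the FT-LCG cells had no UMI of any. The summed level varied widely between cells, with a median of 83.0 and 5th and 95th percentiles of 20.5 and 355 in CT-LCG. In FT-LCG the median was 106 and these percentiles were 15.2 and 369.

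JUN, JUNB and FOS held the highest levels. JUN, the first described partner of FOS, had 27.4 UMIs per 10000 in the CT-LCG library (95% Poisson interval 27.2 to 27.6) and 24.3 in the FT-LCG library (24.2 to 24.4). JUNB, which can restrain JUN activity, reached 24.8 and 30.2. JUND, known for steadier expression in resting cells, was at 13.6 and 17.7. FOS was close to JUN and JUNB, with 22.1 (21.9 to 22.3) for CT-LCG and 29.7 (29.6 to 29.8) for FT-LCG, while FOSB was at 4.28 and 2.84. ATF3 was at 11.6 and 14.9, EGR1 at 5.82 and 4.69 and IER2 at 4.69 and 2.88 in CT-LCG and FT-LCG. FOS, JUN, JUNB, JUND and ATF3 thus stood above FOSB, EGR1 and IER2 in both libraries.

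The share of cells with a UMI depends on depth, so cells were thinned to 1000 UMIs, which left out 369 cells of CT-LCG and 1039 of FT-LCG. FOS was then detected in 69.0% of the CT-LCG cells (Clopper-Pearson interval 67.3 to 70.6) and in 68.6% (67.6 to 69.6) of the FT-LCG cells, against 88.5% and 91.4% unthinned. FOSB was detected in 36.4% and 22.8% of thinned cells, EGR1 in 42.2% and 31.6%, and IER2 in 33.9% and 24.4%. Unthinned, FOSB was found in 65.3% and 54.7% of cells, EGR1 in 70.2% and 61.7%, and IER2 in 62.2% and 58.3%. No cell class is known to lack these genes, so no measure of background was at hand. Set beside the kept cells were the barcodes with at most 500 genes, which the authors left out and which had medians of 716 and 607 UMIs. The paper's number of sequenced cells includes these barcodes, so they are not taken as empty droplets. FOS had a UMI in 68.1% (CT-LCG) and 76.1% (FT-LCG) of the left-out barcodes, FOSB in 30.8% and 17.2%, EGR1 in 40.5% and 26.1%, and IER2 in 21.2% and 17.4%. The thinned share of FOS in FT-LCG was thus below that of the left-out barcodes, and the shares of detection are not read as expression. After thinning JUNB was detected in 72.9% of the CT-LCG cells, within counting error of JUN at 72.7%, and in 78.2% of the FT-LCG cells, where it was the most widely detected.

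The 8 genes had UMIs in every cluster. By the mean of both libraries, the levels of most of them differed less between clusters than those of most genes. With the mean of both libraries as a cluster's level, the highest cluster exceeded the lowest 2.01-fold for JUNB, 2.64-fold for JUND, 2.83-fold for FOSB and for JUN, 2.88-fold for FOS and 2.97-fold for IER2. The spread was wider for ATF3, at 4.05-fold, and for EGR1, at 4.69-fold. Of 13014 genes with at least 100 UMIs over both libraries, 81.7% spread at least 3-fold between the highest and the lowest cluster, against 2 of the 8 immediate early genes. Genes of low level, for which counting error widens the spread, are included in this background. The mean of the libraries narrows the spread where they differ in a cluster. In CT-LCG alone FOS ran from 3.92 to 36.0 between clusters, JUNB from 7.07 to 43.6 and ATF3 from 2.09 to 14.2. In FT-LCG alone these ran from 12.6 to 43.6, from 18.2 to 36.4 and from 5.75 to 17.5. The share of all genes was not computed for a single library.

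The cluster called outer root sheath or bulge-like (ORS/bulge-like), led by KRT6A, GJB6, SFRP1 and SOX9 and holding 452 CT-LCG and 1678 FT-LCG cells, had the highest summed level. The 8 genes added up to 182 UMIs per 10000 in its CT-LCG cells (180 to 184) and to 156 in its FT-LCG cells (156 to 157), and both values lay above both values of the next cluster. That next cluster was the fibroblast or dermal papilla-like one, where the CT-LCG value was 141 and the FT-LCG value 142. From the endothelial-like cluster, at 152 and 112, down to the cycling cluster, at 90.7 and 81.9, the values of neighbouring clusters in the order overlapped between the libraries. The macrophage or dendritic-like cluster was lowest by pooled UMIs, at 76.0 and 80.4, and both values lay below both of the cycling cluster. In FT-LCG its interval, 78.9 to 82.0, overlapped that of the cycling cluster, 81.4 to 82.5. By the mean over cells it was above the cycling cluster, at 102 and 88.3 against 81.3 and 84.1. At a finer resolution another cluster was lowest by pooled UMIs, at 58.9 and 51.7. It was led by LOC102169125 and LOC102191166 and took 365 of the cells of the cycling cluster. The finer cluster called cycling, at 99.2 and 109, took 512 cells of the cycling cluster and 181 of the basal epidermal-like one.

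By the mean of both libraries, 5 of the 8 genes were highest in the ORS/bulge-like cluster, where 12.4% of all genes tested had their highest level. The cluster was picked by the sum of these same 8 genes, so their count there is not read as an enrichment over that share. By the mean over cells, in thinned cells and in cells with at least 1000 genes, 4 were highest in it. FOS stood at 36.0 (35.1 to 36.8) in its CT-LCG cells and at 43.6 (43.2 to 43.9) in its FT-LCG cells. Both were above the values of the fibroblast or dermal papilla-like cluster, 34.5 (32.9 to 36.2) and 33.0 (31.4 to 34.6), but in CT-LCG the intervals overlapped. EGR1 was at 13.8 and 8.63 in the ORS/bulge-like cluster and at 5.83 and 6.86 in the fibroblast or dermal papilla-like one, so its libraries also did not overlap between these clusters. JUN was at 48.7 and 29.9, FOSB at 8.50 and 4.53 and IER2 at 7.67 and 3.18, and for these 3 genes the next cluster overlapped with the range of the libraries. In FT-LCG alone FOSB and IER2 were not highest in the ORS/bulge-like cluster. The fibroblast or dermal papilla-like cluster was above it for both, at 4.76 for FOSB and 4.80 for IER2. For IER2 so were others, such as the endothelial-like (3.65) and T cell-like (3.52) clusters.

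At the same finer resolution the ORS/bulge-like cluster divided mainly into a part led by TRPV3 and CA12, which took 1205 of its cells, and a KRT6A-led part, which took 820. In the part led by TRPV3 and CA12, with 353 cells of the coarse and 865 of the fine library, the 8 genes added up to 182 and 193 UMIs per 10000. In the KRT6A-led part, of 94 and 726 cells, they added up to 187 in CT-LCG and to 105 in FT-LCG. That CT-LCG value was the highest of the finer clusters. The FT-LCG value was below those of the finer suprabasal epidermal-like (173), fibroblast or dermal papilla-like (143) and granular layer-like (136) clusters, among others. JUN was at 54.3 and 40.5 in the first of these and at 40.9 and 15.9 in the second, and FOSB was at 10.8 and 6.53 against 5.38 and 2.07. The part led by TRPV3 and CA12 met the rule for no cell type name, so the name ORS/bulge-like does not hold for most of the cluster's cells at this resolution. At this resolution, with another seed and with all genes allowed among the variable genes, the cluster of the highest summed level was one led by TRPV3 with CA12 or HSPA6, in which 5, 6 and 5 of the 8 genes were highest. Without Harmony, which aligns the libraries, and with 20 principal components in place of 10 it was a KRT6A-led cluster, with 5 and only 2 of the 8 genes highest.

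JUNB, JUND and ATF3 had their highest levels elsewhere. JUNB was highest among endothelial-like cells, with 43.6 in CT-LCG but 25.5 in FT-LCG, a range that held the values of the ORS/bulge-like cluster, 37.6 and 31.2. ATF3 had its highest values, 14.2 and 17.5, in granular layer-like cells, and those of the ORS/bulge-like cluster were equal to 3 digits. ATF3 was lowest in the T cell-like cluster, with 2.09 for CT-LCG and 5.75 for FT-LCG, apart from the values of every other cluster but the mast cell-like one. JUND stood apart from the other members, since its highest levels were in the mast cell-like cluster (26.6 and 29.8) and the T cell-like cluster (25.9 and 28.9), both above the fibroblast or dermal papilla-like cluster (18.1 and 21.9).

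**Figure D1:**
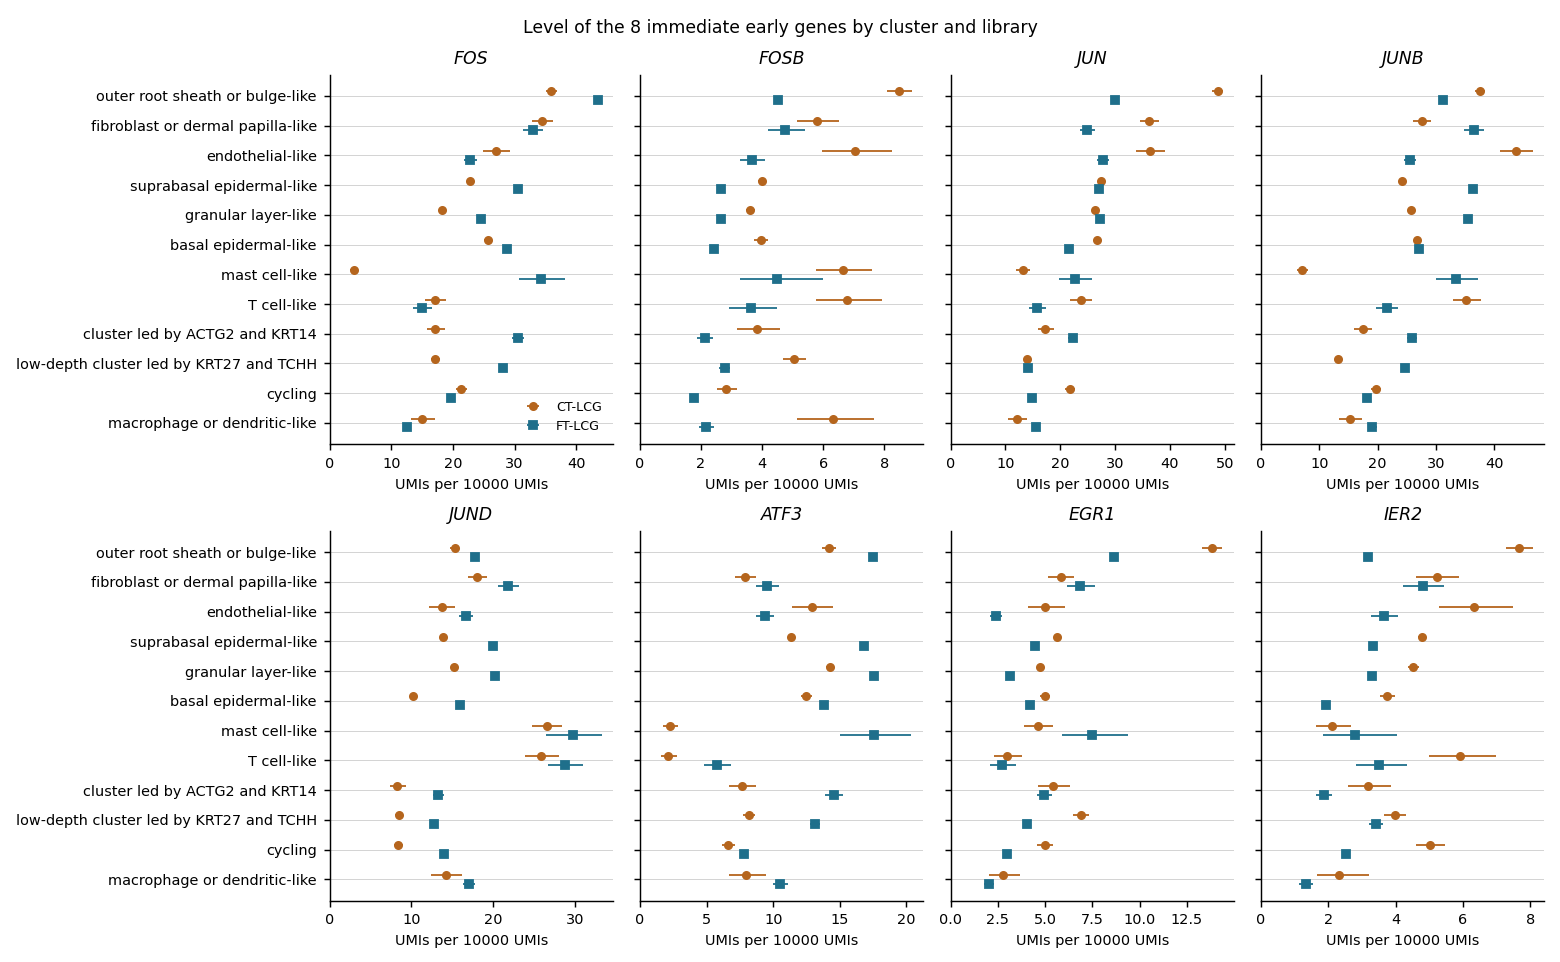
Level of each of the 8 genes, in UMIs per 10000 UMIs on a linear axis, in the 12 ranked clusters, ordered from the top by the summed level. Circles are CT-LCG, squares are FT-LCG and bars are 95% Poisson intervals of the summed counts. FOS and EGR1 are highest in the cluster at the top in both libraries, JUND is highest in the mast cell-like and T cell-like clusters, and the mast cell-like values of FOS lie at 3.92 and 34.3.

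In the mast cell-like cluster the summed level of the pooled UMIs was 66.4 for CT-LCG but 152 for FT-LCG, the widest ratio of the 12 clusters by this measure. The mean over its cells was 80.2 and 107 and the median over cells 53.7 and 72.9, so by cells the libraries were closer. By the mean over cells the low-depth cluster led by KRT27 and TCHH, at 79.8 and 127, and the cluster led by ACTG2 and KRT14, at 84.7 and 134, differed more. In the 65 CT-LCG cells FOS was at 3.92 (3.27 to 4.67), JUNB at 7.07 and ATF3 at 2.24, while in the 25 FT-LCG cells FOS was at 34.3 (30.8 to 38.1), JUNB at 33.4 and ATF3 at 17.5. The means over these cells were 6.47 and 21.8 for FOS, 9.06 and 22.2 for JUNB and 2.92 and 8.97 for ATF3, the medians of FOS were 2.38 and 7.72, and ATF3 was detected in 61.5% and 52.0% of the cells. JUND did not follow, at 26.6 and 29.8, and made up 40.0% of the UMIs of the 8 genes in CT-LCG but 19.6% in FT-LCG. Epidermal and mast cell markers also differed between the libraries in this cluster, in opposite directions. The 8 basal epidermal markers in the matrix, KRT5 and KRT14 among them, summed to 9.12 UMIs per 10000 in the CT-LCG cells of this cluster, where ITGB4 and LAMB3 were at 0, and to 120 in the FT-LCG cells, where all 8 had UMIs. The 8 suprabasal epidermal markers summed to 52.5 and 93.0. The 6 mast cell markers summed to 88.1 and 35.1, all with UMIs in both. In the T cell-like cluster the same basal markers summed to 12.4 and 103, with LAMB3 at 0 in both libraries. In the macrophage or dendritic-like cluster they summed to 26.1 and 355. The basal markers were higher in FT-LCG in every ranked cluster, so this difference was not particular to these clusters. They summed to 50.1 and 186 in the suprabasal epidermal-like cluster and to 11.9 and 67.6 in the fibroblast or dermal papilla-like one. The part of RNA from epidermal cells in these differences was not tested.

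The FT-LCG and CT-LCG libraries did not differ 2-fold in any of the 8 genes over all cells, beside 15.7% of 13014 genes that did. FOSB and IER2 were 1.51-fold and 1.63-fold higher in CT-LCG, and these were the only 2 beyond 1.5-fold, against 34.4% of all genes. The FOSB call depended on the setting. FOSB was at 1.83-fold with the mean over cells, 1.71-fold with clusters weighted equally and 1.81-fold in thinned cells. It was at 1.49-fold in cells with at least 1000 genes and at 1.47-fold without the top 5% of cells by the doublet score of Scrublet. IER2 lay between 1.54-fold and 1.65-fold in these settings. ATF3 reached 1.52-fold with the mean over cells and 1.51-fold in thinned cells, higher in FT-LCG, and was below 1.5-fold in the other settings. EGR1 was 1.24-fold and JUN 1.13-fold higher in CT-LCG. FOS was 1.34-fold, JUND 1.30-fold, ATF3 1.29-fold and JUNB 1.22-fold higher in FT-LCG.

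Within clusters some of these directions recurred. FOSB was higher in CT-LCG in 12 of the 12 clusters, IER2 in 11 and EGR1 in 10, and 15.8% of all genes tested were higher in CT-LCG in at least 10 clusters. JUND was higher in FT-LCG in 12 of the 12 clusters and ATF3 in 11, against 12.1% of all genes for FT-LCG. Only 3.42% of genes were higher in CT-LCG in every cluster and 2.1% higher in FT-LCG in every cluster. JUN, JUNB and FOS were mixed: JUN was higher in CT-LCG in 7 clusters, JUNB was higher in FT-LCG in 8 and FOS in 7. A difference of at least 1.5-fold in at least 7 of the 12 clusters was found for FOSB, in 9, and for IER2, in 7, both higher in CT-LCG, where 17.4% of all genes met that rule, so 2 of 8 is near that share. Goat, library and depth cannot be told apart in these differences.

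The level of the 8 genes changed with the depth of the cell, and not in a single direction. The cells of each library were divided by total UMIs into 5 bins of equal size, from the shallowest (bin 1) to the deepest (bin 5). In this order the summed level was 84.4, 94.5, 143, 164 and 96.3 in CT-LCG. In FT-LCG it was 127, 140, 158, 134 and 115. Bin 4 of CT-LCG and bin 3 of FT-LCG were highest, and both ends were lower. FOS followed this course in CT-LCG, with 18.4 in bin 1, 37.3 in bin 4 and 16.7 in bin 5, and in FT-LCG, with 35.3 in bin 1, 43.1 in bin 3 and 24.9 in bin 5.

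Between the ends, EGR1 was 1.96-fold and FOSB 1.86-fold lower in the deepest than in the shallowest CT-LCG cells, and JUNB was 1.56-fold higher. These 3 of 8 genes compare with 38.3% of all genes that differed at least 1.5-fold in either direction. In FT-LCG only EGR1 passed, from 6.33 in the shallowest to 4.21 in the deepest cells, against 47.2% of genes. Clusters differ in depth, with median UMIs of 1088 to 23466 for CT-LCG and 1128 to 15043 for FT-LCG. When the bins were formed within clusters, 6 genes were at least 1.5-fold lower in the deepest cells of CT-LCG, where 17.6% of all genes were. The folds were 3.15 for EGR1, 2.96 for FOS, 2.82 for IER2, 2.72 for FOSB, 2.53 for JUN and 2.11 for JUNB. ATF3 and JUND were also lower, by less than 1.5-fold. In FT-LCG 3 genes were at least 1.5-fold lower within clusters, IER2 by 1.66-fold, EGR1 by 1.61-fold and FOS by 1.52-fold, where 42.2% of all genes were. FOSB, JUN, JUNB and ATF3 were lower by less than 1.5-fold. JUND changed least within clusters, 1.29-fold lower in CT-LCG and 1.05-fold higher in FT-LCG.

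**Figure D2:**
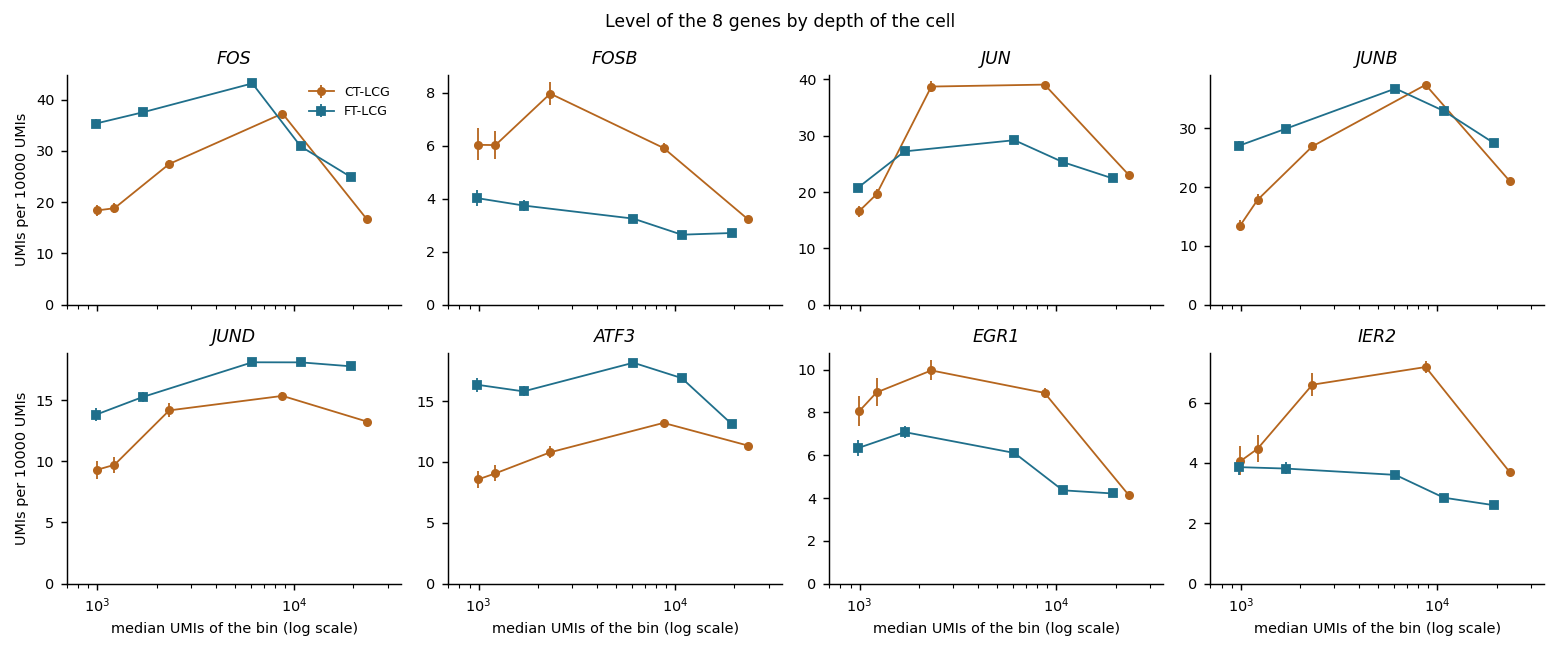
Level of each gene, in UMIs per 10000 UMIs from 0 on a linear axis, in 5 bins of the cells of each library by depth, plotted at the median UMIs of the bin on a log axis. Circles are CT-LCG, squares are FT-LCG and bars are 95% Poisson intervals. FOS reaches 37.3 in bin 4 of CT-LCG and 16.7 in the deepest bin, and in FT-LCG it peaks at 43.1 in bin 3.

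The 8 genes rose together from cell to cell. Cells of each cluster and library were ranked by the summed level of 7 genes, and the gene left out was compared between the 25% of cells with the highest sum (high cells) and the 25% with the lowest (low cells). FOS was at 61.9 UMIs per 10000 in the high and 3.39 in the low cells of CT-LCG, an 18.3-fold ratio, and at 76.6 and 3.97 in FT-LCG, a 19.3-fold ratio. EGR1 came next, at 15.8 against 1.14 (13.8-fold) in CT-LCG and 11.6 against 0.786 (14.7-fold) in FT-LCG. The gene left out took no part in the ranking, so these ratios do not follow from its own counts.

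The other members also rose. JUN differed 10.6-fold in CT-LCG and 9.81-fold in FT-LCG, FOSB 7.61-fold and 11.7-fold, JUNB 7.36-fold and 7.42-fold, and IER2 6.05-fold and 5.87-fold. ATF3 differed 4.60-fold in CT-LCG and 11.3-fold in FT-LCG. JUND rose least, from 9.66 to 18.8 (1.95-fold) in CT-LCG and from 11.1 to 25.9 (2.33-fold) in FT-LCG. At 2-fold, 7 of the 8 genes passed in CT-LCG and 8 of 8 in FT-LCG, whereas 4.3% of 10022 and 3.65% of 12390 genes were 2-fold higher in cells ranked by all 8. After thinning to 1000 UMIs the ratios of the 7 genes other than JUND were smaller, 6.46-fold and 8.49-fold for FOS, and that of JUND was 2.00-fold and 2.35-fold. JUN then exceeded FOS in CT-LCG, at 6.80-fold.

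**Figure D3:**
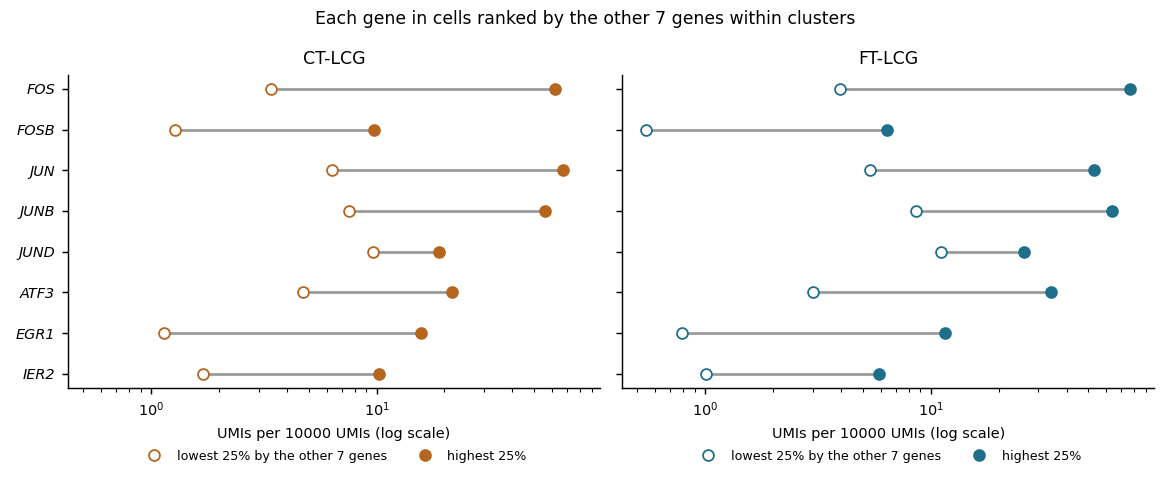
Level of each gene, in UMIs per 10000 UMIs on a log axis, in the 25% of cells with the lowest (open circles) and the 25% with the highest (filled circles) sum of the other 7 genes within clusters, for CT-LCG on the left and FT-LCG on the right. FOS is farthest apart, 18.3-fold and 19.3-fold, and JUND nearest, 1.95-fold and 2.33-fold.

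The direction was the same in every cluster that could be ranked. In each of the 8 CT-LCG and 9 FT-LCG clusters with at least 100 cells, every one of the 8 genes was higher in the high cells by the other 7. Over these clusters FOS ranged from 2.21-fold to 39.7-fold for CT-LCG and from 3.18-fold to 33.5-fold for FT-LCG, and JUND from 1.37-fold to 3.36-fold and from 1.49-fold to 6.34-fold. The high cells by all 8 genes were shallower than the low cells in both libraries, with a smaller share of ribosomal protein genes. The high and low cells had median UMIs of 2191.5 and 2624.5 in CT-LCG and 5568 and 6057 in FT-LCG, and ribosomal protein genes took 22.2% and 23.8%, and 24.3% and 27.4%, of their UMIs. The part of depth in the folds was not tested.

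Correlations of the 8 genes across cells are given as a description. Pearson's r of log(1 + UMIs per 10000) was computed for the 28 pairs within each cluster of at least 100 cells and averaged over clusters, over 3218 CT-LCG cells and 9446 FT-LCG cells. The points share library, depth and the total each count is divided by. The median over pairs was 0.353 (0.166 to 0.539) for CT-LCG and 0.391 (0.229 to 0.593) for FT-LCG, and 28 of 28 pairs exceeded 0.1 in each library. No such count was made for pairs of other genes, so 28 of 28 is not read as particular to these genes. FOS and JUN were the closest pair in both, at 0.539 and 0.593, followed by FOS and JUNB, at 0.515 and 0.545. The weakest pair was ATF3 with IER2 in CT-LCG, at 0.166, and JUND with IER2 in FT-LCG, at 0.229. ATF3 with FOS stood at 0.304 in CT-LCG and at 0.500 in FT-LCG. In thinned cells the medians were 0.215 and 0.244.

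**Figure D4:**
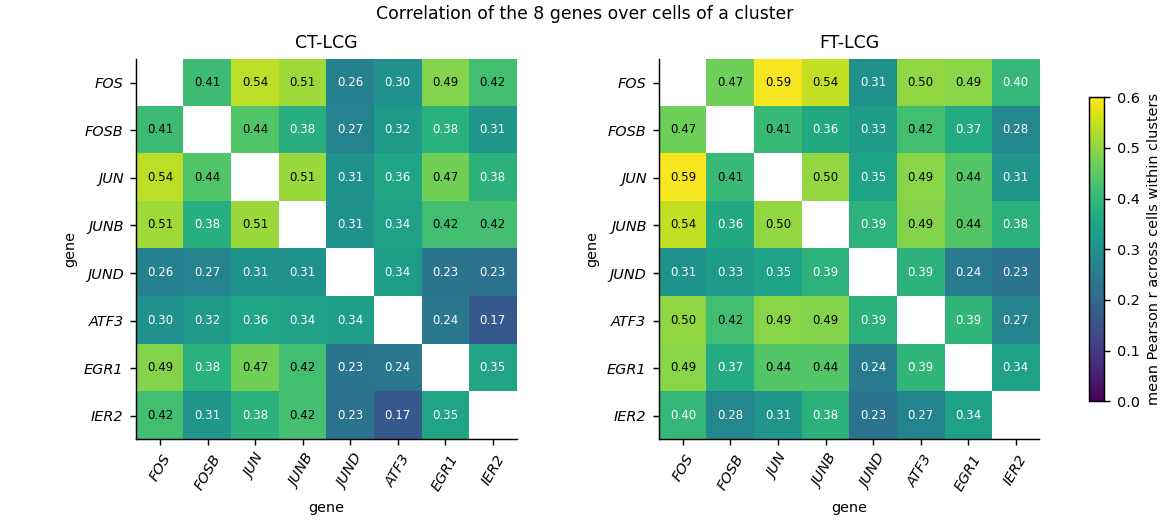
Pearson's r between each pair of the 8 genes across cells, averaged over clusters of at least 100 cells, on a colour scale from 0 to 0.6, for CT-LCG on the left and FT-LCG on the right. FOS with JUN is highest, at 0.54 and 0.59, and the row of JUND is among the lowest.

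The co-variation was weak in the low-depth cluster led by KRT27 and TCHH, genes of the inner root sheath of the hair follicle. This cluster held 1137 CT-LCG and 2103 FT-LCG cells with medians of 1088 and 1128 UMIs. The median r over pairs was 0.0644 for CT-LCG and 0.0662 for FT-LCG, against 0.188 to 0.620 and 0.314 to 0.582 in the other clusters. Low depth lowers r. Thinning to 1000 UMIs kept only 857 CT-LCG and 1412 FT-LCG cells of this cluster, those with enough UMIs. Among thinned cells its median r was again lowest, at 0.0764 and 0.0815. The others ranged from 0.184 to 0.312 (CT-LCG) and from 0.181 to 0.373 (FT-LCG). The part of depth or of free RNA in the weak co-variation was not tested. The highest thinned values were 0.312 in the suprabasal epidermal-like cluster of CT-LCG and 0.373 in the ORS/bulge-like cluster of FT-LCG. Without the low-depth cluster the counts of members rising were unchanged at 7 and 8.

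The levels of the 8 genes in this cluster were near those of the left-out barcodes. Their summed level was 77.0 in the cluster and 76.7 in the 2659 left-out barcodes of CT-LCG, and 103 and 111 for FT-LCG, which had 1589 such barcodes. Other clusters were also near by this sum. In CT-LCG the macrophage or dendritic-like cluster was at 76.0 and the cluster led by ACTG2 and KRT14 at 80.3. In FT-LCG the endothelial-like cluster, at 112, and the basal epidermal-like and ACTG2-led clusters, both at 116, were nearer. In CT-LCG the ratio of cluster to left-out barcodes lay between 0.912 for EGR1 and 1.15 for IER2, with FOS at 17.1 in both. In FT-LCG it lay between 0.749 for EGR1 and 1.04 for JUNB, with JUN at 14.2 and 18.8. The part of free RNA in these cells was not tested.

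Many but not all other genes of the response were 2-fold higher in the same cells. Beyond the 8, 31 of 33 listed symbols of other immediate early genes were in the matrix, and the 2 missing, CCN1 and CCN2, were present under their older symbols CYR61 and CTGF. In the high cells by all 8 genes, 15 of 29 tested in CT-LCG and 17 of 30 in FT-LCG were at least 2-fold higher and none 2-fold lower, beside the 4.3% and 3.65% of all genes that were 2-fold higher. Their median log2 ratio was 1.00 and 1.33, beside −0.14 and −0.04 over all genes tested. HES1, a repressor in the Notch pathway, differed 10.8-fold and 7.79-fold. KLF2, a Krüppel-like factor, differed 10.3-fold and 10.6-fold, and KLF10 7.89-fold and 8.49-fold. NR4A1, an orphan nuclear receptor, differed 4.06-fold in CT-LCG and 13.6-fold in FT-LCG. FOSL1, another Fos family member, was at ratios of −0.49 and 0.11 on the log2 scale, and FOSL2 at 0.37 and 0.81. The kinase gene SGK1 was at −0.16 and −0.65, and BTG1, which restrains cell division, at −0.29 and 0.06.

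Feedback and stress genes, whose products end the response or protect the cell, were higher by 2-fold for 13 of 17 in CT-LCG and 10 of 17 in FT-LCG, beside 4.3% and 3.65% of all genes. Their median log2 ratios were 1.73 and 1.24, beside −0.14 and −0.04 over all genes tested. GADD45B, a stress sensor protein, differed 22.6-fold and 13.8-fold, and SOCS3, an inhibitor of cytokine signalling, 11.0-fold and 14.8-fold. PPP1R15A, which restores translation after stress, differed 10.7-fold and 11.3-fold, and ZFP36, which destabilises short-lived RNAs, 8.59-fold and 9.35-fold. The MAP kinase phosphatase DUSP1 differed 3.31-fold and 3.42-fold.

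Heat shock and ubiquitin genes were 2-fold higher for 9 of 21 in CT-LCG and 11 of 21 in FT-LCG, beside 4.3% and 3.65% of all genes. Their median log2 ratios were 0.83 and 1.04. HSPA1A, HSPA1B and HSPA1L had no match by symbol. HSPA6, an inducible chaperone of the Hsp70 family, went from 1.22 to 36.4 UMIs per 10000 in CT-LCG (29.8-fold) and from 0.954 to 21.2 in FT-LCG (22.2-fold). DNAJB1, a co-chaperone of that family, differed 3.02-fold and 4.58-fold. HSPH1 differed 2.11-fold and 4.25-fold, and HSPA8 2.27-fold and 4.18-fold. HSP90B1 and HSPA13 had log2 ratios of −0.64 and −0.49 in CT-LCG and −0.20 and −0.17 in FT-LCG.

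Of 16 kinases and factors upstream of the genes, such as MAPK3, SRF and ELK1, none was 2-fold higher in either library. Of all genes 4.3% in CT-LCG and 3.65% in FT-LCG were, so for 16 genes this count is near that share. The median log2 ratios of the upstream list were −0.28 and −0.03. In CT-LCG RPS6KA3 was 2.45-fold and MAPK8 2.06-fold lower, where 3.99% of all genes were 2-fold lower (3.91% in FT-LCG). Of 14 genes often used as steady references none was 2-fold higher, also near the share of all genes that were. HPRT1 was 2.02-fold lower in CT-LCG, and the median log2 ratios of the reference genes were −0.39 and −0.12.

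**Figure D5:**
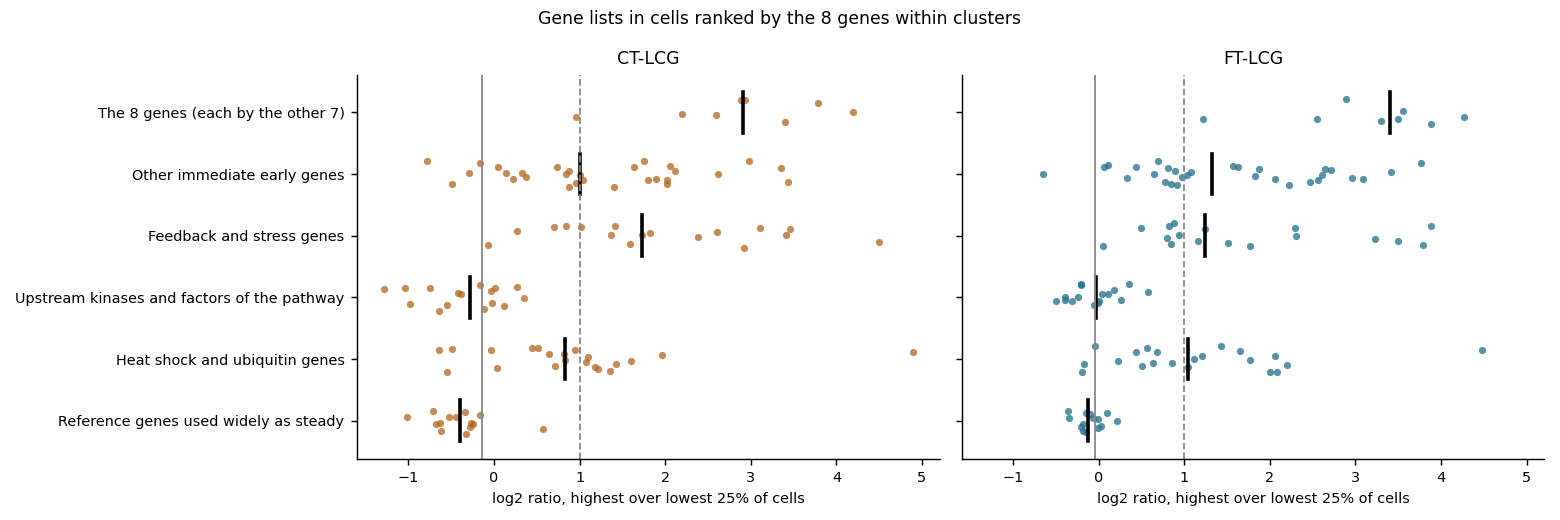
The log2 ratio between high and low cells by the 8 genes for the genes of each list (points) with the list median (black bar), for CT-LCG on the left and FT-LCG on the right. The solid grey line is the median of all genes tested, −0.14 and −0.04, the dashed line is 2-fold, each of the 8 genes was ranked by the other 7, and the medians of the upstream and reference lists lie below 0.

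The sum of the 8 genes also followed the sums of these lists across the cells of a cluster. Averaged over clusters, r with the feedback and stress genes was 0.621 for CT-LCG and 0.674 for FT-LCG, 0.552 and 0.654 with the other immediate early genes, and 0.492 and 0.503 with the heat shock and ubiquitin genes. It was −0.0987 and 0.00814 with the upstream list, −0.162 and −0.107 with the reference genes and −0.189 and −0.187 with ribosomal protein genes. In thinned cells the first 3 lists were at 0.480 and 0.523, 0.472 and 0.525, and 0.424 and 0.399.

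Among all genes other than the 8, those with the largest ratio between high and low cells in CT-LCG were TNFSF9 (35.0-fold), HSPA6, GADD45B, IER5L (15.9-fold), MMP7, CD83, DNAH12, IL1A (12.6-fold), LOC108634870 and TNF. TNFSF9 and TNF encode cytokines of the tumour necrosis factor family and IL1A encodes interleukin-1 alpha, an alarm signal of keratinocytes. TNF and DNAH12 had only 169 and 167 UMIs in that library. In FT-LCG they were CXCL13 (42.7-fold, with 145 UMIs), LOC102175889, HSPA6, SOCS3, LOC102189536, GADD45B, NR4A1, DKK1 (11.7-fold), PPP1R15A and ARC (10.7-fold), a gene best known from neurons as an early response gene. The CXCL13 level of the low cells, 0.00137, was under the floor of 3 counts used for ratios, so the floor set its ratio. HSPA6 and GADD45B were in both lists of 10.

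Over the 24 profiles of 12 clusters in 2 libraries, which share depth and library, some members had another member as their nearest gene among 9947 compared. FOS and JUNB were nearest to each other (r = 0.821) and JUN was nearest to JUNB (r = 0.769). Outside the 8, the profile of ATF3 was most like that of CEBPD (r = 0.899), that of FOSB like PCF11 (r = 0.872), that of JUND like REEP5 (r = 0.833), that of FOS like CTTN (r = 0.811), that of EGR1 like AREL1 (r = 0.810) and that of IER2 like MTMR3 (r = 0.808). JUN was next like MBNL2 (r = 0.760) and JUNB like C7H5orf45 (r = 0.703). JUND, FOSB and EGR1 had no other member among their first 100 genes. The nearest member stood at rank 2159 for JUND (JUNB, r = 0.201), at rank 727 for FOSB (IER2, r = 0.587) and at rank 570 for EGR1 (JUN, r = 0.515).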

How the data were processed

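The deposited matrix holds raw UMI counts by gene and barcode, made by the authors with Cell Ranger 3.0.2 (per the file headers). The submitters' processing notes name GRCh38 and GRCm38, which are human and mouse builds, with no role, and neither a goat build nor its annotation is given in the sources used here. The library of a cell, and whether it was kept, came from the authors' cell list. Of 17299 barcodes, 13051 were kept, all with at least 501 genes. Of 27137 features, 27103 identifiers were in the reference table of goat genes, all 8 members included, and no sequences were used. The members, lists and rules were chosen with earlier results of these data known.

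Clustering followed the authors' outline, with counts per 10000 log-transformed, 2000 variable genes, 10 principal components, a numpy version of Harmony, 20 neighbours and Leiden at the lowest resolution in steps of 0.1 giving at least 13 clusters (0.3). Clusters were named from marker lists when at least 3 markers were detected and the leading 10 genes favoured 1 list. The endothelial and lymphatic endothelial lists counted as 1 for this purpose. A cluster with at least 2 leading markers of another list, or under 20% of its library's median depth, was called by its leading genes, a choice made after seeing the data. High and low cells within clusters were compared after standardising to the same clusters, and a level under 3 counts was set to that floor. Genes with at least 100 UMIs entered the background, and all 8 members did.

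Named genes are the 8, the 10 other genes with the largest ratio between high and low cells per library, the most alike in profile, and list genes of the largest size. FOSL1, FOSL2, SGK1, BTG1, DUSP1, HSPH1, HSPA8, HSP90B1, HSPA13, MAPK3, SRF and ELK1 were named outside this rule after their values were seen. A gene of the upstream list is not reported here and was left out of that list's values. Intervals are exact at 95% for counting error only, and each library's depth, from 630 to 190503 UMIs per cell, sets them. Doublets were not removed, since Scrublet called 2 and 0 cells; leaving out the 5% with the highest scores is an alternative, like others listed in the closing section. The functions were tested on simulated data. Software was scanpy 1.11.5, leidenalg 0.10.2, scipy 1.17.1 and numpy 2.4.6 under Python 3.11.15, with figures by matplotlib 3.10.9.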

Additional observations from a re-analysis of the deposited data

Results flagged for a closer look

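The barcodes that the authors left out, all with at most 500 genes and outside the comparisons between kept cells, also carried the 8 genes. Their summed level was 76.7 UMIs per 10000 (75.5 to 77.9) for CT-LCG and 111 (109 to 113) for FT-LCG, beside 114 and 127 in the kept cells. EGR1 was at 7.58 in the left-out barcodes of CT-LCG and 5.82 in the kept cells, and at 5.42 and 4.69 in FT-LCG, while JUN was lower in the left-out barcodes, at 14.0 against 27.4 and at 18.8 against 24.3.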

How the results depend on the processing

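Of 72 recomputed counts, 58 stayed within 1.5 times the reported one. A count carries no direction, and directions of single genes did change. In CT-LCG JUN, JUNB, JUND and ATF3 were higher in the deepest than in the shallowest cells, but lower with bins formed within clusters. JUNB went from 1.56-fold higher to 2.11-fold lower. JUN and JUNB also changed direction in FT-LCG. The 28 pairs and the 7 and 8 genes rising together stayed within that range under every alternative run for them. With 20 principal components 2 genes, not 5, were highest in the leading cluster, and the counts under the other clusterings refer to other leading clusters. The members 1.5-fold apart in most clusters went from 2 to 1 with the mean over cells, with thinned cells and without the top 5% of cells by Scrublet score. With a fold of 1.5, 2 members differed between the libraries over all cells. Of the members 1.5-fold apart between the deepest and shallowest cells (3 in CT-LCG, 1 in FT-LCG), there were 6 and 3 with bins formed within clusters, 5 and 2 with 3 bins in place of 5, 0 and 0 with a fold of 2, and 5 and 3 in cells with at least 1000 genes; without the low-depth cluster, an alternative added after seeing the data, FT-LCG had 2. The causes were not tested. No paired analysis was possible because each type is 1 goat with 1 library. With 1 library per type the spread between animals is unknown, and cells near 1000 UMIs limit the detection of FOSB, EGR1 and IER2.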

Other observations

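Over all cells 15.7% of all genes tested differed 2-fold between the libraries, and no difference between the lists and this share was tested. NR4A1 was 4.16-fold and CTGF 2.46-fold higher in FT-LCG over all cells, while SGK1 was 4.47-fold and BTG1 3.01-fold higher in CT-LCG, the only 4 of 30 other immediate early genes tested beyond 2-fold. Of 18 feedback and stress genes, SPRY4, TNFAIP3 and DUSP6 were 2-fold higher in CT-LCG, by 3.35-fold, 2.50-fold and 2.10-fold. Of 21 heat shock and ubiquitin genes, 5 were 2-fold higher in CT-LCG, HSPA2 by 3.12-fold, DNAJA1 by 2.76-fold, DNAJB4 by 2.59-fold, HSPA5 by 2.54-fold and DNAJB9 by 2.53-fold, and their median log2 ratio of FT-LCG to CT-LCG was −0.34, beside 0.03 over all genes. None of 16 upstream genes and none of 14 reference genes differed 2-fold.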
